A study of Mus musculus with 21 samples.

Results

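The genes of cholesterol synthesis, uptake and efflux were examined in 21 mammary tumours from mice of the genotype WAP-Cre/PIK3CA-H1047R. The set holds 32 genes chosen by symbol, of 24028 in the count table, and all 32 were found and passed the filter on low counts, which left 15792 genes. In these mice a recombinase driven by the promoter of a milk protein, which is active in differentiating mammary epithelium, switches on the H1047R mutant of PIK3CA, the catalytic subunit of PI3K-alpha. Every tumour carried both alleles. The vehicle group (7 tumours) received DMSO, the solvent, and the other 14 tumours came from animals treated with BYL719, an inhibitor of PI3K-alpha known as alpelisib, and were labelled relapse (7) or stable (7). The labels give neither the animals' age nor the dose or the time of collection, and the series text calls one treated group responding without saying how this relates to relapse. The sample titles carry a code with 3 values among vehicle, 7 among relapse and 4 among stable tumours. If a code marks an animal, several tumours share one, and the p-values below measure only the spread between tumours.

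Cells make cholesterol from acetyl-CoA through mevalonate, the isoprenoid farnesyl diphosphate, squalene and lanosterol. When membranes of the endoplasmic reticulum are poor in sterol, the escort protein SCAP carries the transcription factor SREBP2 (gene Srebf2) to the Golgi, where it is cleaved, and its freed part enters the nucleus and switches on nearly every enzyme of the route. INSIG proteins hold SCAP back when sterol is plentiful. Oxysterols, which build up when sterol is plentiful, activate the LXR receptors, which switch on the export pumps ABCA1 and ABCG1. PI3K, AKT and mTORC1 are known to raise SREBP activity in many cells.

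The promoters of 4 synthesis genes carry the sequence features counted here. Hmgcs1 is shown because it holds the sterol response element searched for, Sc5d and Mvk because they had the lowest p-values against vehicle among the genes with a promoter sequence, and Msmo1, chosen after its values were seen, because it changed most. Each line gives 250 bases before and 50 bases after a start site of RefSeq (GRCm38.p6), read 5′ to 3′ on the gene's strand. Capitals mark CCAAT boxes on either strand (ATTGG where the box lies on the opposite strand), which bind NF-Y, a known partner of SREBPs, and the match to TCACNCCAC. The windows lie at chr13:119690101-119690400 (+ strand) for Hmgcs1, chr5:114444019-114444318 (+) for Mvk, chr9:42264251-42264550 (- strand) for Sc5d and chr8:64733529-64733828 (-) for Msmo1.
Hmgcs1: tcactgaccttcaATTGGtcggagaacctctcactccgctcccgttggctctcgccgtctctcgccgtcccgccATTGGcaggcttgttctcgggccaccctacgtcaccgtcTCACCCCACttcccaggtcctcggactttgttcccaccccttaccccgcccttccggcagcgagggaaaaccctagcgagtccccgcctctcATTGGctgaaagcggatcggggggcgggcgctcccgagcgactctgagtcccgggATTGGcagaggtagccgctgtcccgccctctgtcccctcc
Mvk: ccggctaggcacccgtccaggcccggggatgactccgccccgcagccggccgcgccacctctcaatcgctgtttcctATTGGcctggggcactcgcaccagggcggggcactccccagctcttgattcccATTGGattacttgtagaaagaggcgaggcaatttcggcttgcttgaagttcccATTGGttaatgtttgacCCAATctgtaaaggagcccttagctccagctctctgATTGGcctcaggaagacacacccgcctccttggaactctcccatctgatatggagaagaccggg
Sc5d: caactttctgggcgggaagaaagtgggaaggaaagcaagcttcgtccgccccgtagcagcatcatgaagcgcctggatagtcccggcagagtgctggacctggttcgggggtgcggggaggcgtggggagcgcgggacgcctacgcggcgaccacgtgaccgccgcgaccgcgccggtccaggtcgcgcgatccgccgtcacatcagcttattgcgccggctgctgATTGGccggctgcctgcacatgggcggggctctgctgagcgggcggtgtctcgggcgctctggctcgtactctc
Msmo1: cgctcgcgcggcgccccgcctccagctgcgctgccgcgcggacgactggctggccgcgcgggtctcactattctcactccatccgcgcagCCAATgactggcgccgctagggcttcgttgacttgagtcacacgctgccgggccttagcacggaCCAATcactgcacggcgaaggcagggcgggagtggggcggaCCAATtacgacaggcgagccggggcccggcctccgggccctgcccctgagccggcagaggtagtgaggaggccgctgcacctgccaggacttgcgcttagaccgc

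Of the 32 genes, 26 had a promoter in the RefSeq table, and Fdps, Fdft1, Sqle, Stard4, Npc1 and Abcg1 had none there. Both strands were searched. A CCAAT box stood in 20 of the 26 promoters and in 14 of the 16 that belong to synthesis enzymes. It stood in 38.6% of the promoters of 12222 tested genes. The GC box GGGCGG stood in 21 of the 26 (60.5% of all). The sterol response element TCACNCCAC stood in 1 of the 26, in Hmgcs1 as TCACCCCAC starting 137 bases before the start site, and in 1.1% of all. The classical element SRE-1, which overlaps it, stood in none of the 26 and in 0.0491% of all, and the perfect direct repeat bound by LXR, spaced by 4 bases, stood in 0 of the 26 and 0 of the 12222. In the sequences above, Mvk holds 5 CCAAT boxes, Hmgcs1 holds 4, Msmo1 holds 3 and Sc5d holds 1. A match describes the letters of these windows and does not show binding.

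Total counts per tumour were 13337848 to 24873844. Markers of luminal epithelium (8 genes, keratins and adhesion genes among them) summed to 1793 to 4609 normalised counts (counts scaled to library size, CPM) in every tumour, so that epithelial RNA was present throughout. Vehicle 2, 6 and 7 stood apart: their summed CPM of 8 smooth muscle and myoepithelial markers was 9737 to 22974, against 779 or less in each of the other 18 tumours, and their summed cell cycle markers (10 genes) were 317 to 598, against 1351 to 1773 in the other vehicle tumours. Skeletal muscle markers (12 genes) summed to 211 to 565 CPM in vehicle tumours. The sums were 189 to 7878 CPM in relapse and 223 to 4560 CPM in stable tumours. Against vehicle, 11 of 12 rose in relapse and 7 of 12 in stable tumours, where 5.42% and 6.9% of all tested genes rose. The counts below are therefore also given without vehicle 2, 6 and 7. Vehicle 3 was the highest of all 21 tumours for 21 of the 32 genes. In bulk tissue, fewer cells of a type and less RNA per cell cannot be told apart.

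In relapse tumours 10 of the 32 genes fell and 0 rose against vehicle (edgeR quasi-likelihood test, Benjamini-Hochberg adjusted p under 0.05 over all 15792 genes). Over all genes tested, 11.2% were called, 5.8% lower and 5.42% higher. The genes that fell were Srebf2 and 9 of the 19 synthesis enzymes. All 19 enzymes had a negative log2 fold change, as did 52.2% of all tested genes. On leaving out 1 tumour, the values of Tm7sf2 and Dhcr7 reached up to 0.01 and 0.03. The enzyme median was -0.77, or -0.58 without vehicle 3. The median over all tested genes was -0.02. With upper quartile scaling, which split the calls over all genes into 673 lower and 953 higher against 916 and 856 with TMM scaling, 10 of the 32 fell and 1, Npc2, rose (4.26% and 6.03% of all genes). In stable tumours 13 genes fell and 1, Npc2, rose, where 15.1% of all genes were called, 8.16% lower and 6.9% higher. They included 11 of the 19 enzymes. The median over the 19 was -0.80 in stable tumours, or -0.60 without vehicle 3. With upper quartile scaling 12 of the 32 fell in stable tumours and 3, Npc2, Abca1 and Abcg1, rose, and the calls over all genes turned from 1288 lower and 1090 higher to 1032 and 1294 (6.53% and 8.19% of all genes). Both comparisons use the same 7 vehicle tumours, so that they are not independent of each other.

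**Figure D1:**
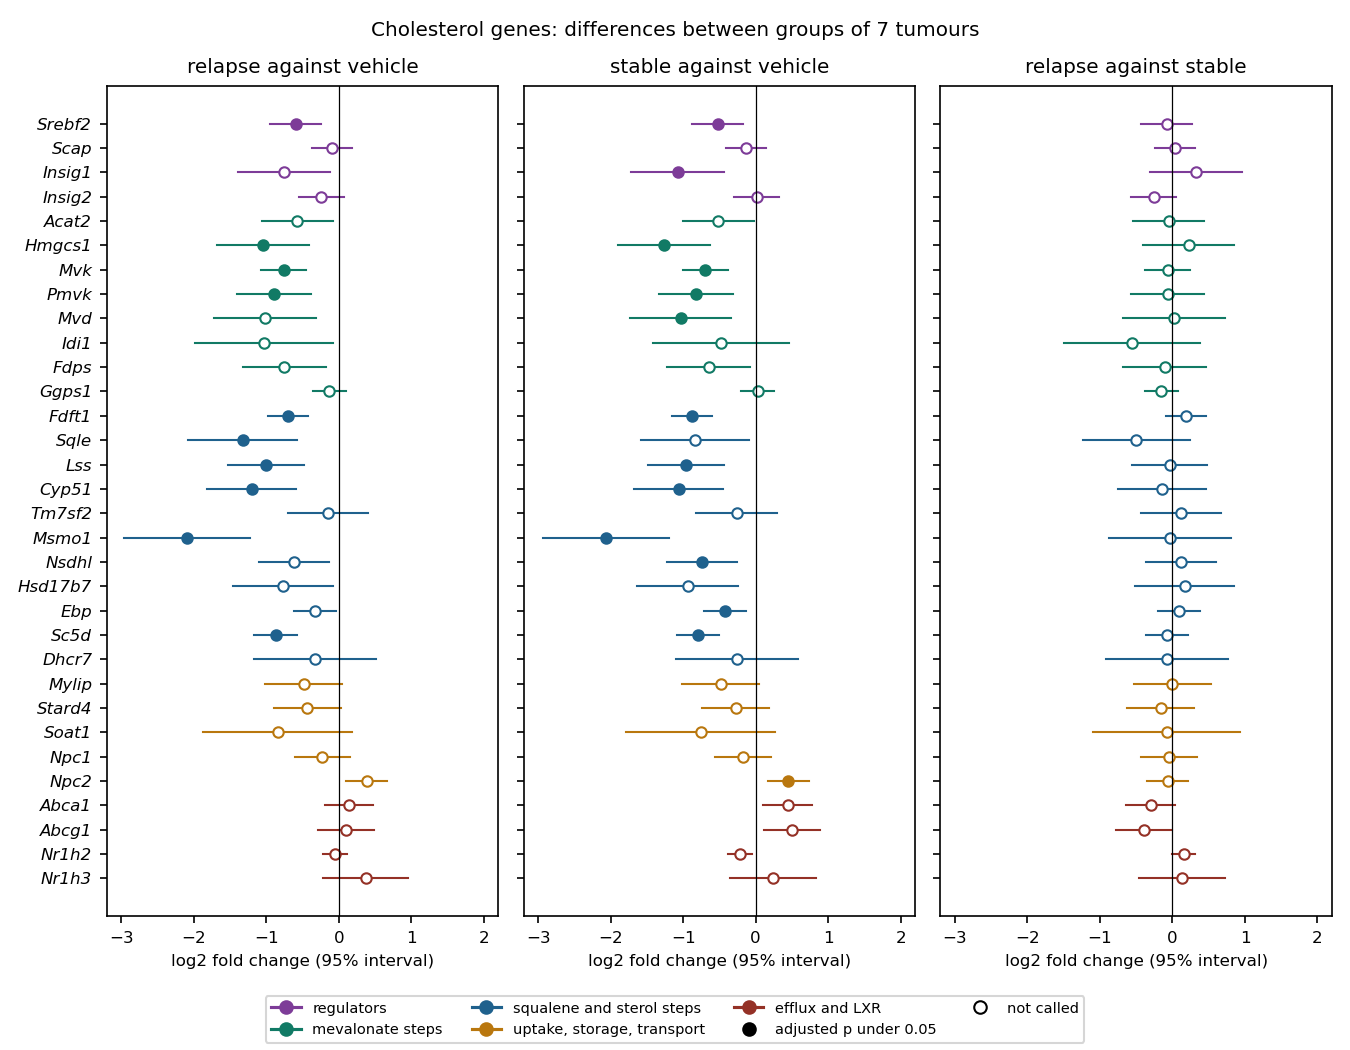
Log2 fold change (x axis, point with its 95% interval) of the 32 genes in 3 comparisons of 7 against 7 tumours, coloured by role, with filled points for an adjusted p under 0.05. The regulators and the mevalonate and sterol steps lie mostly left of 0 in both comparisons with vehicle, the efflux genes lie near 0 or to its right, and no point is filled between relapse and stable tumours.

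Among the regulators, Srebf2, which encodes SREBP2 (Entrez 20788, chromosome 15, 82147269 to 82205379, GRCm38.p6), ranged from 66.7 to 147 CPM in vehicle (median 94.9), from 45.7 to 70.3 in relapse (64.1) and from 47.1 to 99.6 in the stable group (61.7). All 7 relapse and 6 of 7 stable tumours lay below the vehicle median, while the groups overlapped. Srebf2 fell by 0.60 on the log2 scale (SE 0.17, edgeR adjusted p = 0.0277) in relapse tumours and by 0.52 (SE 0.17, edgeR adjusted p = 0.0429) in stable tumours. In what follows, a log2 fold change is given as its value ± SE. Vehicle 2, 6 and 7 held the 3 highest vehicle values, 95.8 to 147 CPM, and without them the calls were lost, at -0.36 (edgeR adjusted p = 0.251) and -0.27 (edgeR adjusted p = 0.367). The relapse call was also lost on leaving out relapse 1 or vehicle 2, 6 or 7 alone (edgeR adjusted p = 0.0578 to 0.0865). The stable call was lost in 14 of the 21 omissions of 1 tumour (edgeR adjusted p = 0.0508 to 0.16). Of the 11 alternative analyses, 7 kept the relapse call and 4 kept the stable call. Both were lost with the replicate number as a block and with counts summed by title code.

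Insig1, the INSIG gene that SREBPs themselves induce, ranged from 15.3 to 58.1 CPM in vehicle (median 18.9), 7.94 to 24.5 in relapse (13.9) and 6.45 to 19.3 in the stable group (12.4). It fell in stable tumours, with a log2 fold change of -1.08 ± 0.31 (edgeR adjusted p = 0.0252), and was at -0.76 ± 0.31 (edgeR adjusted p = 0.113) in relapse tumours, or -0.43 there without vehicle 3. The stable call was lost without vehicle 3 (edgeR adjusted p = 0.0606), vehicle 7 (0.0533), or vehicle 2, 6 and 7 together (0.0856). Insig2, the second INSIG gene, was at -0.24 in relapse and 0.01 in stable tumours, and Scap, the escort, was at -0.10 and -0.13. Neither gene passed the test in either comparison (edgeR adjusted p from 0.306 to 0.96).

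Of the 8 genes from acetyl-CoA to the isoprenoid diphosphates, 3 fell in relapse tumours and 4 in stable tumours, with medians of -0.82 and -0.67. Over all tested genes, 5.8% and 8.16% fell. Hmgcs1, which joins acetyl-CoA to acetoacetyl-CoA, had the highest level per length of the synthesis enzymes in vehicle tumours (47.3 ± 35.1 CPM per kilobase of the deposited gene length, SD, n = 7), with Msmo1 at 35.2 ± 42.2, within that spread. It ranged from 104 to 565 CPM in vehicle (median 169), 75.6 to 174 in relapse (90.9) and 54.9 to 109 in the stable group (92.8). Hmgcs1 fell in both, at -1.04 ± 0.30 in relapse (edgeR adjusted p = 0.0319) and -1.27 ± 0.31 in stable tumours (edgeR adjusted p = 0.0111). Vehicle 3 alone reached 565 CPM, and the next vehicle tumour was at 210.4 CPM. Without it the log2 fold change was -0.58 in relapse (edgeR adjusted p = 0.0666, not called) and -0.81 in stable tumours (edgeR adjusted p = 0.0151, still called). The relapse call was also lost without relapse 1, 3, 4, 5 or 6 taken singly (edgeR adjusted p = 0.0563 to 0.0616), and it was kept without vehicle 2, 6 and 7 (0.0195). Of the 11 alternatives, 6 kept this call. It was lost with the replicate number as a block, with counts summed by title code and in the fit of only the 2 groups. It was also lost without vehicle 2, 3, 6 and 7 and in limma voom with the code as a random effect.

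Mvk, mevalonate kinase, was lower in every relapse tumour (5.51 to 6.39 CPM, median 6.07) than in any vehicle tumour (6.71 to 14.1, median 9.61). Stable tumours ranged from 4.89 to 8.14 CPM (median 6.32) and overlapped with vehicle through stable 7 and vehicle 7. Mvk fell in both groups, with a log2 fold change of -0.76 ± 0.15 in relapse (edgeR adjusted p = 0.00473) and -0.69 ± 0.15 in stable tumours (edgeR adjusted p = 0.00551). Pmvk, the next kinase, also fell in both, at -0.89 ± 0.24 (edgeR adjusted p = 0.0237) and -0.82 ± 0.24 (edgeR adjusted p = 0.0299). Its levels were 14.5 to 42 CPM in vehicle (median 22.2), 10.1 to 19.4 in relapse (13.4) and 7.43 to 19.9 in the stable group (14.3), so that the groups overlapped. Without vehicle 7 both Pmvk calls were lost (edgeR adjusted p = 0.0682 and 0.091), and without vehicle 3 or stable 4 the stable call was lost (edgeR adjusted p = 0.0657 and 0.0523). With counts summed by title code, the stable Mvk call (edgeR adjusted p = 0.0514) and both Pmvk calls were lost. Both Pmvk calls were also lost without vehicle 2, 3, 6 and 7.

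Mvd, the decarboxylase that ends the mevalonate steps, ranged from 4.11 to 29.3 CPM in vehicle (median 12.6), 4.89 to 7.97 in relapse (6.11) and 3.41 to 10.5 in the stable group (5.27). It fell in stable tumours (-1.04 ± 0.34, edgeR adjusted p = 0.0429), a call lost in 15 of the 21 omissions of 1 tumour (0.0502 to 0.121). It was at -1.02 ± 0.34 in relapse tumours (edgeR adjusted p = 0.0552). Without vehicle 3 it was at -0.65 in relapse and -0.67 in stable tumours. Vehicle 2 and 6 lay below every relapse tumour, and without vehicle 2, 6 and 7 Mvd fell in both, at -1.41 and -1.42 (edgeR adjusted p = 0.0179 and 0.00887). With vehicle 3 left out as well, Mvd was called in neither comparison. Acat2, Idi1 and Fdps were at -0.57, -1.03 and -0.75 in relapse and at -0.52, -0.48 and -0.65 in stable tumours, and none was called (edgeR adjusted p from 0.0821 to 0.493). These are the cytosolic thiolase, the isomerase of isopentenyl diphosphate and the farnesyl diphosphate synthase. Without vehicle 3, Acat2 was at -0.23 and -0.17 and Fdps at -0.60 and -0.50. Idi1 was then at -0.49 in relapse and 0.06 in stable tumours. In the 11 alternatives, which include the fit without vehicle 2, 3, 6 and 7, its stable value stayed negative (-0.98 to -0.36). Stable 1 stood at 56.9 CPM for Idi1, and the next stable tumour at 21.6 CPM. Ggps1, which makes geranylgeranyl diphosphate on a branch that leaves the sterol route, was at -0.13 (95% interval -0.36 to 0.10) and 0.03 (-0.20 to 0.26).

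**Figure D2:**
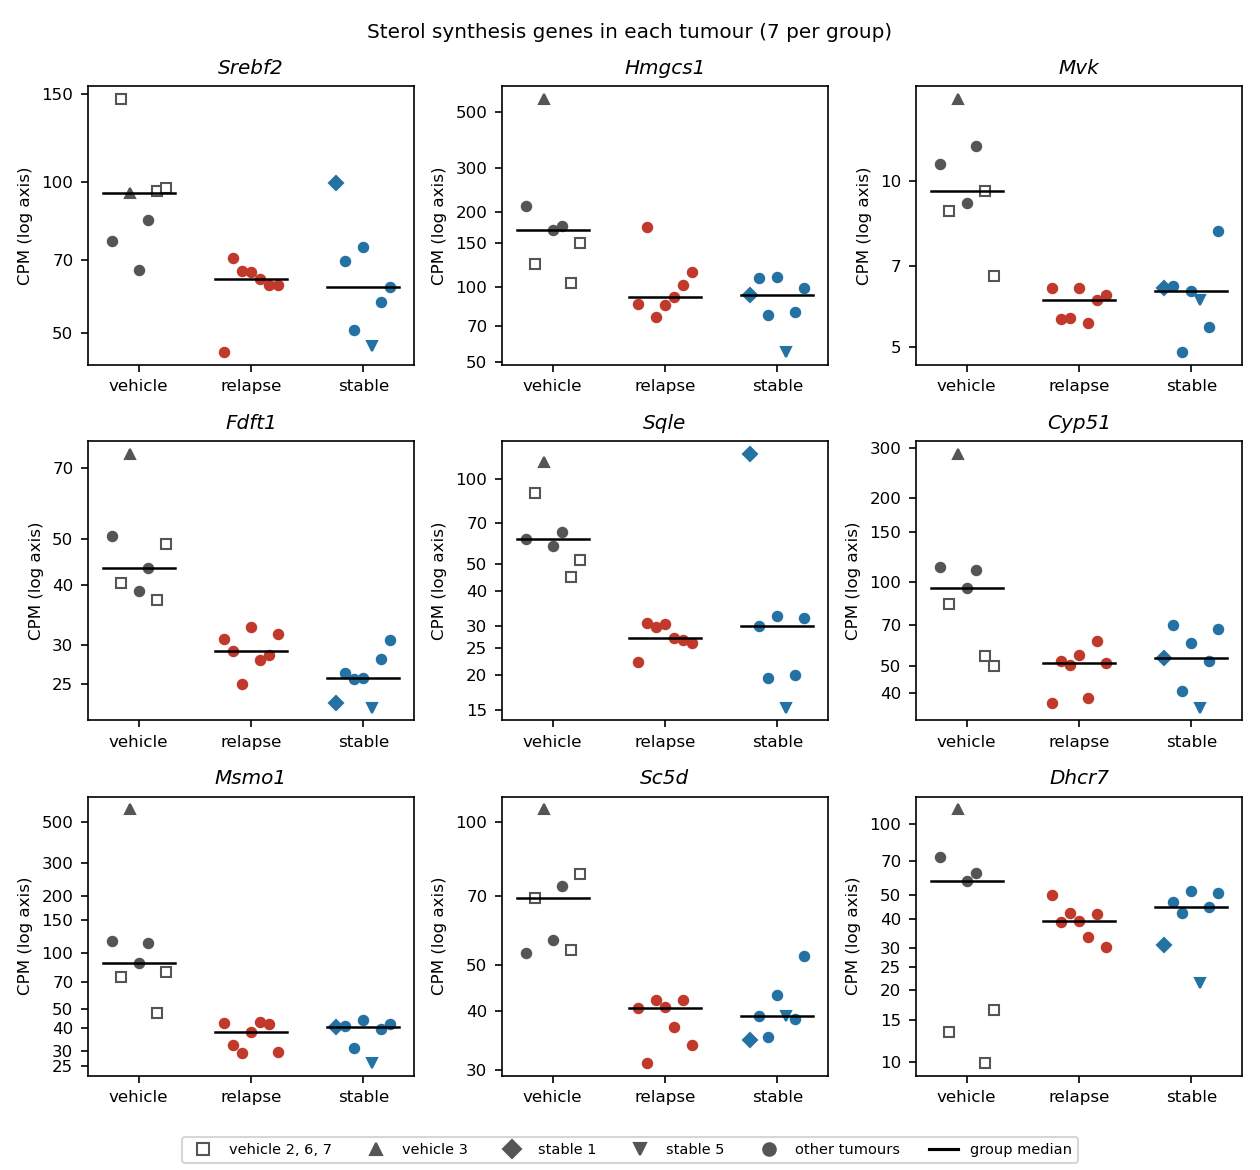
CPM (log axis) of Srebf2 and 8 synthesis enzymes in each tumour, 7 per group, with the group median as a line and separate symbols for vehicle 2, 6 and 7, vehicle 3, stable 1 and stable 5. Fdft1, Msmo1 and Sc5d show no overlap between vehicle and either treated group, and in Dhcr7 vehicle 2, 6 and 7 lie below all other tumours.

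From squalene on, 6 of 11 genes fell in relapse and 7 of 11 in stable tumours, where 5.8% and 8.16% of all tested genes fell. All 11 had negative log2 fold changes in both (medians -0.77 and -0.83). Fdft1, squalene synthase and the first step committed to sterols (Entrez 14137, chromosome 14, 63145150 to 63181687), ranged from 37.2 to 74.9 CPM in vehicle (median 43.5), 24.9 to 32.7 in relapse (29.2) and 22.3 to 30.8 in the stable group (25.7). No treated tumour reached the lowest vehicle tumour. The log2 fold change was -0.70 ± 0.13 in relapse (edgeR adjusted p = 0.00406) and -0.88 ± 0.13 in stable tumours (edgeR adjusted p = 0.000631), the lowest p of the 32 genes in that comparison.

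Msmo1, the C4-methylsterol oxidase (Entrez 66234, chromosome 8, 64718123 to 64733578), had the largest change of the 32 genes in both comparisons. It ranged from 47.9 to 581 CPM in vehicle (median 88.5), 29.1 to 42.8 in relapse (38.1) and 25.9 to 43.7 in the stable group (40.5), with no overlap between vehicle and treated tumours. Its log2 fold change was -2.10 ± 0.42 in relapse (edgeR adjusted p = 0.005) and -2.06 ± 0.42 in stable tumours (edgeR adjusted p = 0.00395). Vehicle 3 stood at 581 CPM and the next vehicle tumour at 116 CPM. Without vehicle 3 the log2 fold changes were -1.24 (edgeR adjusted p = 0.00145) and -1.20 (edgeR adjusted p = 0.000833), with both calls kept. Over the 11 alternative analyses and 21 omissions of 1 tumour its adjusted p ran from 1.19e-05 (DESeq2) to 0.0291 in relapse and from 1.83e-05 (DESeq2) to 0.0298 in stable tumours.

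Sc5d, the lathosterol desaturase of the late route (Entrez 235293, chromosome 9, 42251592 to 42264300), ranged from 53.1 to 106 CPM in vehicle (median 69.4), 31.1 to 42.2 in relapse (40.7) and 34.7 to 52.2 in the stable group (39.1), again without overlap. Its log2 fold change was -0.87 ± 0.14 in relapse (edgeR adjusted p = 0.00176), the lowest p of the 32 genes there, and -0.80 ± 0.14 in stable tumours (edgeR adjusted p = 0.00171). Mvk, Fdft1, Sqle, Lss, Msmo1 and Sc5d were the 6 genes whose relapse and vehicle values did not overlap, and Fdft1, Msmo1 and Sc5d the 3 in stable tumours. Over all genes tested, 1.48% lay wholly lower in relapse and 1.3% in stable tumours.

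Sqle, squalene epoxidase, a rate-controlling enzyme of the route, fell in relapse tumours from a vehicle range of 44.9 to 115 CPM (median 61.2) to 22.3 to 30.7 CPM (27.1). Its log2 fold change there was -1.33 ± 0.36 (edgeR adjusted p = 0.0229), and the call did not hold without vehicle 2 (edgeR adjusted p = 0.0564) or with vehicle 6 and 7 left out as well (0.0686). In stable tumours 6 of 7 values lay between 15.3 and 32.4 CPM and stable 1 stood at 123 CPM, the highest of all 21 tumours. The stable log2 fold change was -0.83 ± 0.36 (edgeR adjusted p = 0.118) with stable 1 and -1.48 (edgeR adjusted p = 0.000321) without it.

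Lss, which closes the ring to lanosterol, ranged from 33.4 to 111 CPM in vehicle (median 38.4), 17.6 to 29.8 in relapse (23.7) and 14.98 to 36.5 in the stable group (24.8). It fell in both, at -1.005 ± 0.25 (edgeR adjusted p = 0.0153) and -0.96 ± 0.25 (edgeR adjusted p = 0.0168). Without vehicle 3, which stood at 111 CPM (next 42.6), Lss was at -0.64 and -0.60, with both calls kept (edgeR adjusted p = 0.019 and 0.0241). Without vehicle 2, 3, 6 and 7 both were lost (edgeR adjusted p = 0.132 and 0.142), and the stable call was lost in the fit of only the 2 groups (0.0666) and with counts summed by title code (0.056). Cyp51, lanosterol demethylase, ranged from 49.6 to 286 CPM in vehicle (median 94.6), 36.7 to 61.2 in relapse (51.3) and 35.4 to 69.9 in the stable group (53.4). It fell in both as well, at -1.20 ± 0.30 (edgeR adjusted p = 0.0138) and -1.06 ± 0.29 (edgeR adjusted p = 0.0224). Vehicle 3 was at 286 CPM and the next vehicle tumour at 113, and without vehicle 3 Cyp51 was at -0.78 and -0.63 (edgeR adjusted p = 0.0198 and 0.0441). With the replicate number as a block both calls were lost (edgeR adjusted p = 0.0567 and 0.0811). The stable call was also lost in the fit of only the 2 groups (edgeR adjusted p = 0.074), with counts summed by title code (0.0512) and in limma voom with the code as a random effect (0.0545). The overlap with vehicle came from vehicle 6 and 7, and both treated groups lay below vehicle 1 to 5.

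Nsdhl and Ebp, both on the X chromosome, encode a C4-decarboxylating dehydrogenase and a sterol isomerase. They fell in stable tumours, at -0.74 ± 0.23 (edgeR adjusted p = 0.0377) and -0.42 ± 0.14 (edgeR adjusted p = 0.0434), and were at -0.62 and -0.33 in relapse tumours (edgeR adjusted p = 0.0871 and 0.121). Without vehicle 3 Nsdhl was at -0.39 in relapse tumours. Nsdhl ranged from 24.9 to 78.5 CPM in vehicle (median 36.2), 22.5 to 44.4 in relapse (24.4) and 12.9 to 32.7 in the stable group (26.3). Ebp ranged from 41.7 to 66.2 CPM in vehicle (median 49.0), 33.3 to 46.6 in relapse (39.5) and 22.1 to 48.5 in the stable group (38.8). In both genes stable 5 had the lowest value of all 21 tumours. The stable calls were lost in 8 omissions of 1 tumour for Nsdhl (edgeR adjusted p = 0.0529 to 0.0898) and in 15 of 21 for Ebp (0.0525 to 0.0902). Without vehicle 2, 6 and 7 the Nsdhl call was kept (edgeR adjusted p = 0.0489) and the Ebp call lost (0.0767).

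Hsd17b7, Tm7sf2 and Dhcr7 were not called in either comparison. Hsd17b7, a sterol ketoreductase, was at -0.77 in relapse (-0.50 without vehicle 3) and -0.94 in stable tumours, and Tm7sf2, a sterol C14-reductase, at -0.15 and -0.26. Dhcr7, the last reductase of the Kandutsch-Russell branch, was at -0.33 (95% interval -1.17 to 0.51) and -0.26 (-1.10 to 0.58). Vehicle tumours were split for Dhcr7: vehicle 2, 6 and 7 ranged from 9.89 to 16.5 CPM and vehicle 1, 3, 4 and 5 from 57.3 to 115 CPM, while treated tumours lay between, at 21.3 to 52.0 CPM. Hsd17b7 showed a similar split, with 16.5 to 20.1 CPM in vehicle 2, 6 and 7 and 45.4 to 84.8 CPM in the other 4. Without vehicle 2, 6 and 7, Dhcr7 fell by 0.95 on the log2 scale in relapse (edgeR adjusted p = 0.0297) and by 0.88 in stable tumours (edgeR adjusted p = 0.0265). Hsd17b7 then fell too, at -1.27 (edgeR adjusted p = 0.0179) and -1.44 (edgeR adjusted p = 0.00482). With vehicle 3 left out as well, Dhcr7 was called in neither comparison and Hsd17b7 only in stable tumours. Of the 11 alternatives, only 1, the fit without vehicle 2, 6 and 7, called Dhcr7.

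Without vehicle 2, 6 and 7 the enzymes called numbered 11 of 19 in relapse and 12 of 19 in stable tumours, all lower, and 8 and 10 of them were those called with every tumour. Over all genes, 1.32% and 2.44% were then called lower. Without vehicle 3 they numbered 8 and 7, where 6.07% and 7.68% of all genes were called lower. Without vehicle 2, 3, 6 and 7, which leaves 1 vehicle tumour of each title code, 5 (Mvk, Fdft1, Cyp51, Msmo1 and Sc5d) and 7 enzymes were called, all lower, where 0.289% and 0.757% of all genes were called lower. Summing the counts of tumours that share a code gave 7 and 4 enzymes, where 3.96% and 2.35% of all genes were called lower. Fdft1, Msmo1 and Sc5d were called lower in both comparisons under each of these 4 settings. A fit of only the stable and vehicle tumours called 5 of the 32 genes, all lower, and 964 of all genes, 465 of them lower. With all tumours fitted, 14 of the 32 and 2378 of all genes were called.

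**Figure D3:**
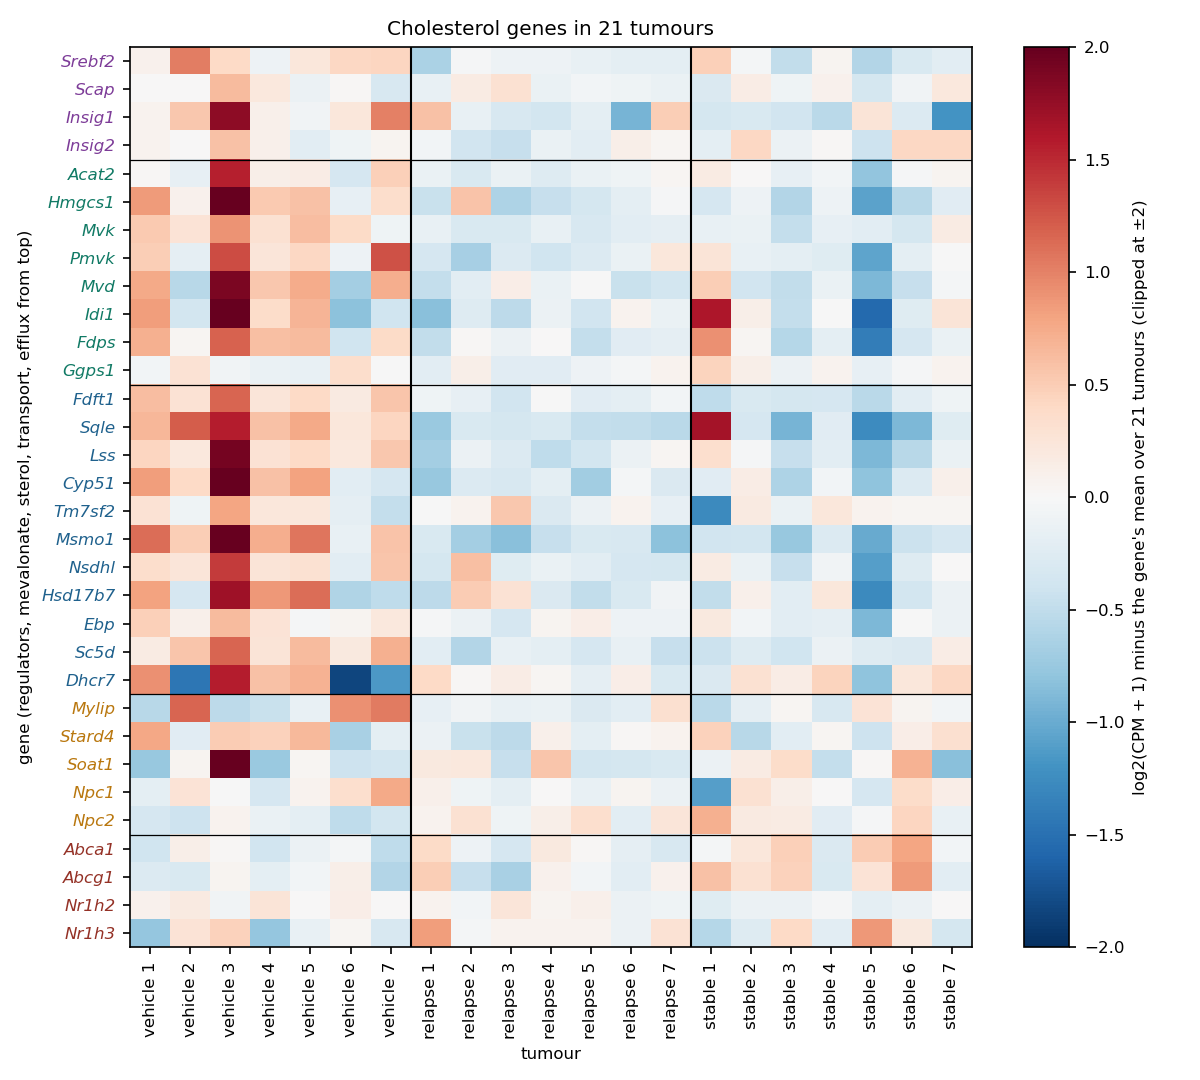
Log2(CPM + 1) of each gene minus its mean over the 21 tumours, by colour from -2 (blue) to 2 (red, larger values shown as 2), with tumours in columns and genes in rows ordered by role. Vehicle 3 is red over most synthesis rows, stable 5 is blue over most of them, and Dhcr7 and Mylip stand apart in vehicle 2, 6 and 7.

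A synthesis score, the mean over the 19 enzymes of log2(CPM + 1) centred on each gene's mean, ran from -0.217 (vehicle 6) to 1.51 (vehicle 3) in vehicle, from -0.335 to -0.107 in relapse and from -0.837 (stable 5) to 0.114 (stable 1) in stable tumours. The relapse tumours spanned the narrowest range of the 3 groups. Vehicle 3 was the highest of 21 tumours for 17 of the 19 enzymes, and stable 5 the lowest for 14. Stable 1 was highest for the remaining 2, Sqle and Ggps1. It also had the highest stable value of Idi1 (56.9 CPM, next 21.6), while its Tm7sf2 (1.35 CPM) was the lowest of all tumours. Summed macrophage (12 genes), basal (4 genes) and adipocyte (9 genes) markers were 2968, 5293 and 702 CPM in vehicle 3, the highest of the vehicle tumours in each case, and its luminal markers summed to 1983 CPM, the lowest of them. In stable 5, skeletal muscle and fibroblast (6 genes) markers summed to 4560 and 8216 CPM and adipocyte markers to 646 CPM, the highest of the stable tumours, and cell cycle markers to 550.3 CPM, the lowest of them. Its luminal markers summed to 1793 CPM, the lowest of all 21 tumours. The part of these other tissues in the scores was not tested.

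Of the 5 genes of uptake, storage and transport, 0 were called in relapse tumours, and 1 rose and 0 fell in stable tumours (medians -0.44 and -0.28). Without vehicle 2, 6 and 7 the medians were 0.06 and 0.11, of the opposite sign. Npc2, which hands cholesterol to NPC1 inside lysosomes, ranged from 65.6 to 98.9 CPM in vehicle (median 73.7), 80.9 to 118 in relapse (102) and 80.1 to 154 in the stable group (105). All 14 treated tumours lay above the vehicle median. It rose in stable tumours (0.45 ± 0.14, edgeR adjusted p = 0.0328) and was at 0.38 ± 0.14 in relapse tumours (edgeR adjusted p = 0.0744). Vehicle 2, 6 and 7 had the 3 lowest values of all 21 tumours, and without them Npc2 was at 0.27 and 0.35 (edgeR adjusted p = 0.368 and 0.222). Without vehicle 3 it rose in relapse tumours as well (0.45, edgeR adjusted p = 0.0434). The stable call was also lost without vehicle 1, 2, 6 or 7 or stable 1 or 6, taken singly (edgeR adjusted p = 0.0514 to 0.0804). Npc1, its membrane partner, was at -0.23 (95% interval -0.61 to 0.16) and -0.18 (-0.56 to 0.21).

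Soat1, which esterifies cholesterol for storage, was at 602 CPM in vehicle 3, where the remaining vehicle tumours had 46.7 to 83.3 CPM. Relapse tumours ranged from 57.5 to 118 CPM (median 64.1) and stable tumours from 44.3 to 130.3 CPM (81.4). With vehicle 3 its log2 fold change was -0.84 in relapse and -0.76 in stable tumours, and without vehicle 3 it was 0.30 and 0.39, in none of these fits past the test. Mylip, an LXR-induced ubiquitin ligase that acts on lipoprotein receptors, was at -0.49 and -0.48 with all tumours and at 0.33 and 0.34 without vehicle 2, 6 and 7, and passed the test in neither. In those 3 tumours it was at 184 to 218 CPM, above the other 18 (65.6 to 121 CPM). Stard4, a cytosolic sterol carrier, was at -0.44 and -0.28 and lay below the vehicle median in all 14 treated tumours. Without vehicle 2, 6 and 7, where it was at 9.85 to 13.9 CPM, it fell in relapse tumours (-0.78, edgeR adjusted p = 0.04) and was at -0.61 in stable tumours (edgeR adjusted p = 0.0716). With vehicle 3 left out as well, Stard4 was called in neither comparison.

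**Figure D4:**
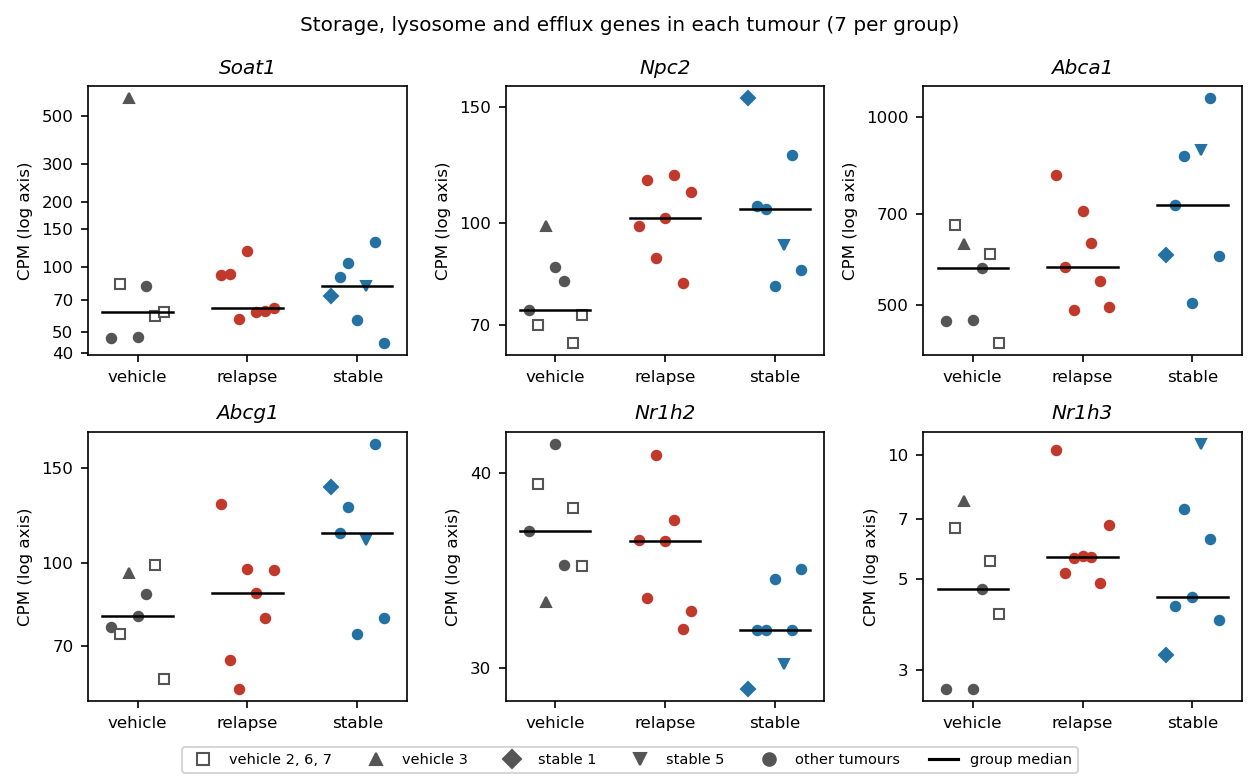
CPM (log axis) of 6 storage, lysosomal and efflux genes in each tumour, 7 per group, with the group median as a line and the same symbols as in the plot of synthesis genes. Soat1 in vehicle 3 lies at 602 CPM, above all other tumours, and stable tumours spread upward for Abca1 and Abcg1 while overlapping with vehicle.

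The efflux genes were not called in either comparison with vehicle. Abca1, the pump that loads cholesterol onto lipid-poor apolipoprotein, had the highest level per length of the 32 genes in vehicle tumours (53.8 ± 8.87 CPM per kilobase). It ranged from 435 to 673 CPM in vehicle (median 574), 492 to 807 in relapse (577) and 504 to 1072 in the stable group (723). Its log2 fold change was 0.14 (95% interval -0.19 to 0.48) in relapse and 0.44 (0.11 to 0.78, edgeR adjusted p = 0.067) in stable tumours. Abcg1, which passes cholesterol to HDL, ranged from 60.7 to 98.9 CPM in vehicle (median 79.5), 58.2 to 128 in relapse (88.0) and 73.6 to 166 in the stable group (114). Its log2 fold changes were 0.10 (-0.28 to 0.48) and 0.50 (0.11 to 0.88, edgeR adjusted p = 0.0713), with overlap between all groups. Both were called higher in stable tumours with upper quartile scaling (edgeR adjusted p = 0.0415 and 0.0467) and by DESeq2 (adjusted p = 0.0329 and 0.0437). Macrophages are a known source of both pumps. Their 12 markers summed to 816 to 2968 CPM in vehicle tumours, 1349 to 2758 in the relapse group and 978 to 2990 in the stable group, with 0 of 12 called in either comparison. The highest stable values of Abca1, Abcg1 and the macrophage sum were all in stable 6. In the relapse group both pumps were highest in relapse 1 and the macrophage sum in relapse 4. Among vehicle tumours the highest values lay in vehicle 2 (Abca1), vehicle 6 (Abcg1) and vehicle 3 (macrophage sum). The part of macrophages in the pumps' levels was not tested.

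Of the LXR receptors, Nr1h2 (LXR-beta) varied little, from 29.1 to 41.7 CPM over all tumours, and was at -0.06 in relapse and -0.21 in stable tumours (edgeR adjusted p = 0.681 and 0.0739). DESeq2 called it lower in stable tumours (-0.20, adjusted p = 0.022). Nr1h3 (LXR-alpha), from 2.7 to 10.6 CPM, was at 0.37 and 0.24 (edgeR adjusted p = 0.421 and 0.591), with wide intervals (-0.22 to 0.96 and -0.35 to 0.83).

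Between relapse and stable tumours 0 of the 32 genes were called by edgeR's quasi-likelihood test (lowest adjusted p = 0.99), where 0% of the 15792 genes were called and 751 had an unadjusted p under 0.05. DESeq2 called 0 of the 32 and 6 of all genes, and limma voom called 0 of either, in both of its settings. One gene of the 32, Abcg1, had an unadjusted p under 0.05 (log2 fold change -0.40, 95% interval -0.78 to -0.01). The median over the 19 enzymes was -0.05. The intervals lay within a 2-fold change in both directions for 29 of the 32 genes (72.4% of all genes), and reached past it for Idi1 (-1.50 to 0.39), Sqle (-1.24 to 0.25) and Soat1 (-1.10 to 0.94).

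The wider pathway, 39 further genes, had 3 members lower and 0 higher in each comparison with vehicle, with medians of -0.12 and -0.18. Over all genes 5.8% were lower in relapse and 8.16% in stable tumours, so that 3 of 39 is near the background. Fntb, a subunit of the farnesyltransferase that uses farnesyl diphosphate to anchor RAS and other proteins in membranes, ranged from 25.8 to 34.8 CPM in vehicle (median 28.9), 14.8 to 18.2 in relapse (16.4) and 11.1 to 22 in the stable group (19.1), without overlap. It fell by 0.85 (SE 0.12, edgeR adjusted p = 0.000653) and 0.70 (SE 0.12, edgeR adjusted p = 0.00158) on the log2 scale. Vldlr, a receptor for triglyceride-rich lipoproteins, fell by 0.91 and 0.95 (edgeR adjusted p = 0.0167 and 0.0124). Without vehicle 2, 6 and 7 both Vldlr calls were lost (edgeR adjusted p = 0.134 and 0.102). Fntb was then still called lower (edgeR adjusted p = 0.0151 and 0.0284), while its stable call did not hold when tumours of a code were summed (0.059) or when vehicle 2, 3, 6 and 7 were left out (0.0712).

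Pdss1, which starts the ubiquinone side chain, was called lower in both comparisons, and neither call held without vehicle 3. It stood at 272 CPM there, where the remaining 6 vehicle tumours had 6.91 to 12.4 CPM, against 6.14 to 10.4 CPM in the relapse group and 6.23 to 19.9 CPM in the stable group. With vehicle 3 its log2 fold changes were -2.49 and -2.31 (edgeR adjusted p = 0.034 and 0.039), and without it -0.25 and -0.07 (edgeR adjusted p = 0.525 and 0.873). Of the rest, 0 of 14 ester and transport genes and 0 of 7 oxysterol enzymes and other LXR targets were called in either comparison.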

How the data were processed

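RNA of 21 mouse mammary tumours was measured. Tumours were ground, total RNA was extracted, and stranded mRNA libraries were sequenced with single reads of 50 nucleotides, per the labels' protocols. Per the submitters' processing notes the build was mm10, and the tools included Picard 2.9.2, edgeR, STAR 2.5.2a and SAMtools 1.3.1. Not given in the sources used here are what each tool did, the annotation, the strand setting and how multi-mapping reads were handled, so reads of similar or overlapping genes may be shared. The authors deposited raw, whole-number counts for each gene, and a gene length in bases whose definition the deposited table does not give. In 10202 of the 24028 rows an extra leading cell was present, so columns were aligned from the end of the row (25 cells), and 14 rows had no symbol. Groups come from the treatment label of each tumour.

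Counts were filtered with filterByExpr by group, scaled by TMM and tested in 3 contrasts of 1 fit to the 21 tumours by the quasi-likelihood test of edgeR 4.0.16 under R 4.3.3, without covariates. Benjamini-Hochberg adjustment ran over all 15792 genes tested. Genes with an adjusted p under 0.05 are called, and only these rose or fell. The SE was taken from the log2 fold change and its F statistic, and 95% intervals from the t distribution. CPM uses TMM-scaled totals, and scores add 1 CPM before the logarithm. Total counts per tumour ranged from 13337848 to 24873844.

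The members and all lists were chosen with earlier results of these data known. All 32 members are described by role, with the lowest, median and highest CPM for those called in any comparison, and of 39 other pathway genes the 3 of lowest p per comparison are named. One further gene is not reported here. Promoters are from RefSeq (GRCm38.p6) and gene positions from its gene table, matched by symbol or Entrez identifier. Promoters are printed for up to 4 members of lowest p that hold TCACNCCAC and up to 2 of lowest p that do not, and for Msmo1, chosen after its values were seen.

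Alternatives were the Wald test of DESeq2 1.42.0, its size factors or upper quartile factors in edgeR, limma 3.58.1 voom (sample quality weights, or a random effect for the title code), no filter, only the 2 groups compared, a replicate block, sums over tumours that share a code, omission of vehicle 2, 6 and 7, and omission of each tumour in turn. The fit without vehicle 2, 3, 6 and 7 was added after seeing the data. The scripts were tested on simulated data.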

Additional observations from a re-analysis of the deposited data

Results flagged for a closer look

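Among 105 groups of 7 tumours (35 named genes in 3 groups), 26 held a tumour whose gap to its nearest neighbour passed Dixon's limit of 0.568 of the group's range. That limit flags about 1 in 20 groups of independent values from a normal distribution. The CPM values of these genes come from the same tumours, so the 26 cannot be set against that rate. Of the 26, 13 are vehicle 3 as the highest vehicle tumour. On the way to sterols it stood at 53.5 CPM for Acat2, 565 for Hmgcs1, 29.3 for Mvd, 85.2 for Idi1, 74.9 for Fdft1, 111 for Lss, 286 for Cyp51, 581 for Msmo1 and 78.5 for Nsdhl. It also stood apart at 58.1 CPM for Insig1, 80.2 for Insig2, 602 for Soat1 and 272 for Pdss1. The other flagged vehicle tumour was vehicle 2, the highest for Srebf2 at 147 CPM.

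In stable tumours 4 genes were flagged with stable 1 highest, namely Sqle at 123 CPM, Idi1 at 56.9, Ggps1 at 51.0 and Pdss1 at 19.9. Stable 1 was also the lowest for Tm7sf2 at 1.35 CPM, and stable 5 the lowest for Acat2 at 9.72 CPM.

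In relapse tumours the flagged values were spread over 4 tumours. Relapse 1 was lowest for Srebf2 at 45.7 CPM and highest for Nr1h3 at 10.3 CPM. Relapse 2 was highest for Hmgcs1 at 174 CPM and for Nsdhl at 44.4 CPM. Relapse 3 was highest for Tm7sf2 at 7.298 CPM, and relapse 7 was highest for Mylip at 121 CPM.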

How the results depend on the processing

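No called gene of the 32 changed direction in any of the 11 alternatives or 21 omissions of 1 tumour. For relapse against vehicle, 10 of the 32 genes were called, 16 with voom and quality weights, 5 without vehicle 2, 3, 6 and 7, and 8 to 13 on leaving out 1 tumour. Over all genes 1772 were called, 2071 with voom and quality weights and 955 with tumours of a code summed. Without vehicle 2, 6 and 7 the number was 527, and without vehicle 2, 3, 6 and 7 it was 100. Leaving out 1 tumour gave 1156 (without vehicle 6) to 2671 (without stable 1), with 1160 without vehicle 2. For stable against vehicle, 14 of the 32 were called, 5 with only the 2 groups compared, 4 with summed counts, 7 without vehicle 2, 3, 6 and 7, and 8 (without vehicle 3 or 7) to 16 on leaving out 1 tumour, with 9 without stable 6. Over all genes 2378 were called, 964 with only the 2 groups compared, 592 with summed counts, 847 without vehicle 2, 6 and 7, 292 without vehicle 2, 3, 6 and 7, and 1470 (without vehicle 6) to 3272 on leaving out 1 tumour, with 1496 without vehicle 2. Summed counts and fewer tumours or groups leave fewer samples, and the cause of these differences was not tested. For relapse against stable tumours, 0 genes were called, 6 by the DESeq2 Wald test, and 0 to 4 on leaving out 1 tumour (4 without relapse 4 and 1 without stable 5), and 0 of the 32 in every case. Mvk, Fdft1, Msmo1 and Sc5d in relapse tumours and Hmgcs1, Fdft1, Msmo1 and Sc5d in stable tumours were called lower in all of these analyses.

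The replicate number as a block gave 7 of the 32 genes in each comparison with vehicle, and 987 and 1251 of all genes. The labels do not state whether the numbers pair the tumours. Over the most variable genes, same-numbered tumours correlated above 0.1 in 1, 2 and 1 of 7 pairs in the 3 comparisons. The highest value was 0.50, between stable and vehicle tumours, and 0 tumours correlated best with their own number. Such correlations cannot exclude pairing or a shared batch.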

Other observations

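A relapse and a stable tumour shared a title code in 2 cases. Between relapse 5 and stable 5, 16 of the 19 synthesis enzymes were higher in the relapse tumour, with a median difference of 0.70 in log2(CPM + 1). Between relapse 6 and stable 7, 5 of the 19 were higher in the relapse tumour, with a median of -0.14. The pairs thus differed in opposite directions, and with 1 tumour on each side there is no test.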
